A study of Homo sapiens with 4 samples.

Results

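The fibroblast growth factor (FGF) genes FGF1, FGF2, FGF5, FGF7, FGF9 and FGF13 and the receptor genes FGFR1, FGFR2, FGFR3 and FGFR4 were described in a bone-metastatic derivative of a prostate cancer line and in its parent. These are 10 of the 18417 genes that the array's annotation ties to a probe set of their own, that is, a probe set with only that gene's symbol. The rule took the brightest such probe set over the 4 arrays, and each of the 10 genes had only 1. The genes were chosen by family and with earlier results of these arrays known, so counts over them are descriptions and not independent evidence.

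PC-3-BM cells (PC3-BM in the study) were labelled as having high metastatic potential. The methods describe them as cells recovered from mouse long bones after several rounds of injection into the heart, then grown in culture, selected with geneticin and sorted by their green fluorescence. PC-3 cells (PC3-P in the study) are the parental human line, which was established from a prostate tumour metastasis in bone, and their labels give a poor metastatic potential. Both lines carried luciferase and green fluorescent protein, PC-3-BM is a single derivative, and each line had 2 Affymetrix Human Gene ST arrays. The labels do not say whether the 2 arrays of a line came from separate cultures, so p-values measure only the spread between arrays, which may be technical. The labels speak of growth in mice and the methods of culture, so it is not settled from which of these the RNA was taken.

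FGF ligands bind receptor tyrosine kinases, the FGFRs, together with heparan sulfate chains at the cell surface. The activated receptor recruits adaptors and switches on the RAS-MAPK cascade, which in turn induces its own inhibitors, the Sprouty and DUSP proteins. In the prostate, stromal cells are known as a source of FGF7, which binds the epithelial splice form of FGFR2, while FGFR1 is known for its expression in mesenchyme and in advanced prostate tumours. FGF13 belongs to the FGF homologous factors, intracellular proteins that act on sodium channels and are not secreted receptor ligands.

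Expression is given as log2 values of the robust multichip average (RMA), so that a difference of 1 is a doubling of signal. Differences are PC-3-BM minus PC-3 with the standard error (SE) from limma, and adjusted p-values are Benjamini-Hochberg values over all 33297 probe sets. A gene rose or fell where its adjusted p lay below 0.05. The arrays correlated at 0.996 within PC-3-BM and 0.997 within PC-3, and at 0.983 to 0.985 between the lines. RMA gives no detection call, and a gene is called dim below where its mean lies under 5.03, the lower quartile of all probe set means.

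FGF7 and FGFR1 rose in PC-3-BM, FGF2 and FGFR4 fell, and the other 6 genes did not pass the test. Over all probe sets 23.2% passed, 11.6% higher and 11.6% lower in PC-3-BM, and over genes by their own probe set 29.6% passed. The count of 4 of 10, with 2 in each direction, is read against that background and does not set the family apart. In 5 of the 10 genes the 2 arrays of one line did not overlap those of the other, against 70.6% of all genes. The median difference was -0.00 over the 10 genes and -0.02 over all probe sets. In the limma fit used here, none of the 10 reached the thresholds of the study's methods (adjusted p under 0.001 and a difference over 2 in either direction), which 17 probe sets passed, while 4 of the 10 had an unadjusted limma p below 0.05. An exact two-sided permutation test of 2 against 2 arrays cannot go below p = 0.333, so the calls rest on the variance that limma shares between probe sets.

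**Figure D1:**
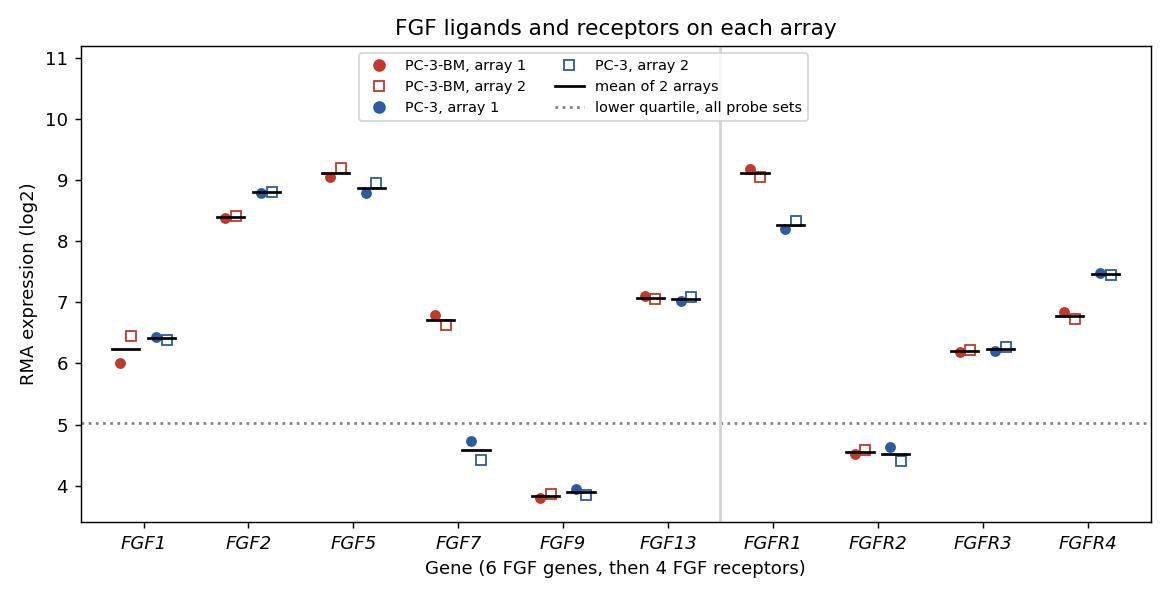
RMA expression (log2, vertical axis) of the 6 FGF genes and 4 receptor genes on each of the 4 arrays, with PC-3-BM in red left of PC-3 in blue; bars are means of 2 arrays and the dotted line is the lower quartile of all probe sets at 5.03. FGF7 lies at 6.63 and 6.79 in PC-3-BM and at 4.43 and 4.74 in PC-3, while FGF9 and FGFR2 lie under the dotted line on every array.

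FGF7, also called keratinocyte growth factor, had RMA values of 6.79 and 6.63 on the PC-3-BM arrays, against 4.74 and 4.43 on the PC-3 arrays. Both PC-3-BM arrays lay above both PC-3 arrays, and the PC-3 mean was dim. FGF7 averaged 6.71 ± 0.11 in PC-3-BM and 4.58 ± 0.22 in PC-3 (SD, n = 2 each), a difference of 2.13 (SE 0.13, 95% interval 1.79 to 2.47, limma adjusted p = 0.00198) or 4.37-fold in signal. Since no detection call separates the dim PC-3 values from background, the fold of the transcript may be larger. By size of difference in signal FGF7 was the 70th of the 18417 genes. The genes were chosen with earlier results of these arrays known, so the size of the FGF7 difference is not independent evidence. Leaving out 1 array at a time gave differences of 1.97 to 2.28 (adjusted p 0.0180 to 0.0292), while without the shared variance the adjusted p was 0.0843.

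The bases just upstream of the start of FGF7 and of FGFR4 are shown as a CpG-poor and a CpG-rich example. The pair was picked after the differences and the CpG counts were seen. RefSeq lists 1 start for FGF7 and 2 for FGFR4, and the most upstream start of each gene was taken. Each stretch is the 100 bases before that start on assembly GRCh38.p14, read 5′ to 3′ on the plus strand, with every CpG dinucleotide (the letters CG, which read the same on both strands) in capitals. The FGF7 stretch is chr15:49423142-49423241 and the FGFR4 stretch is chr5:177086815-177086914.
FGF7: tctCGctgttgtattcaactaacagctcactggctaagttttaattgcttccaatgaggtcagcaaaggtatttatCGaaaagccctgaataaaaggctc
FGFR4: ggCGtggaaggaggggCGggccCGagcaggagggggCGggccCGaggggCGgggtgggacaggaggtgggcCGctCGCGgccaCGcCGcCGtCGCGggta
The FGF7 stretch held 2 CpGs and the FGFR4 stretch 14. In the RefSeq windows of 300 bases, from 250 before to 50 after the start, FGF7 had 4 CpGs and FGFR4 had 30, against a median of 14 and quartiles of 4 and 28 over 35116 windows, of which 96.0% held at least 1. RefSeq windows were matched for 8 of the 10 genes, without FGF9 and FGFR1. In the others the counts were 2 for FGF1, 41 for FGF2, 31 for FGF5, 34 for FGF13, 52 for FGFR2 and 51 for FGFR3. The counts depend on the start taken: over all listed starts they ran from 2 to 30 for FGFR4, 2 to 8 for FGF1, 6 to 31 for FGF5, 0 to 34 for FGF13 and 5 to 52 for FGFR2, and the other FGFR4 start thus had fewer CpGs than FGF7. Any relation of the CpG count to the difference between the lines was not tested, and DNA methylation was not measured.

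The FGF7 signal may be shared with its pseudogenes, partial copies of the gene elsewhere in the genome. In all, 9 probe sets were annotated to FGF7 or an FGF7 pseudogene, 6 of them to FGF7 together with other symbols. Those 6 hold 4 different sets of values, since 3 of them have the same values on all 4 arrays, and all 6 rose. The probe set shared by FGF7P3, FGF7P6 and FGF7 with values of its own had 6.36 and 6.38 in PC-3-BM and 4.98 and 4.87 in PC-3, a difference of 1.44 (SE 0.08). The 3 identical sets with the same symbols had 6.80 and 6.98 in PC-3-BM and 5.59 and 5.44 in PC-3, a difference of 1.38 (SE 0.10). The difference was thus smaller where copies share the probe set than on the FGF7 probe set itself. A pair of probe sets that also hold FAM88C and LERFS differed by 0.54 and 0.68. The 2 sets with pseudogenes but without FGF7 differed by 0.20 (limma adjusted p = 0.120) and 0.39 (adjusted p = 0.0257). How much of the FGF7 probe set's signal comes from the copies was not tested.

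**Figure D2:**
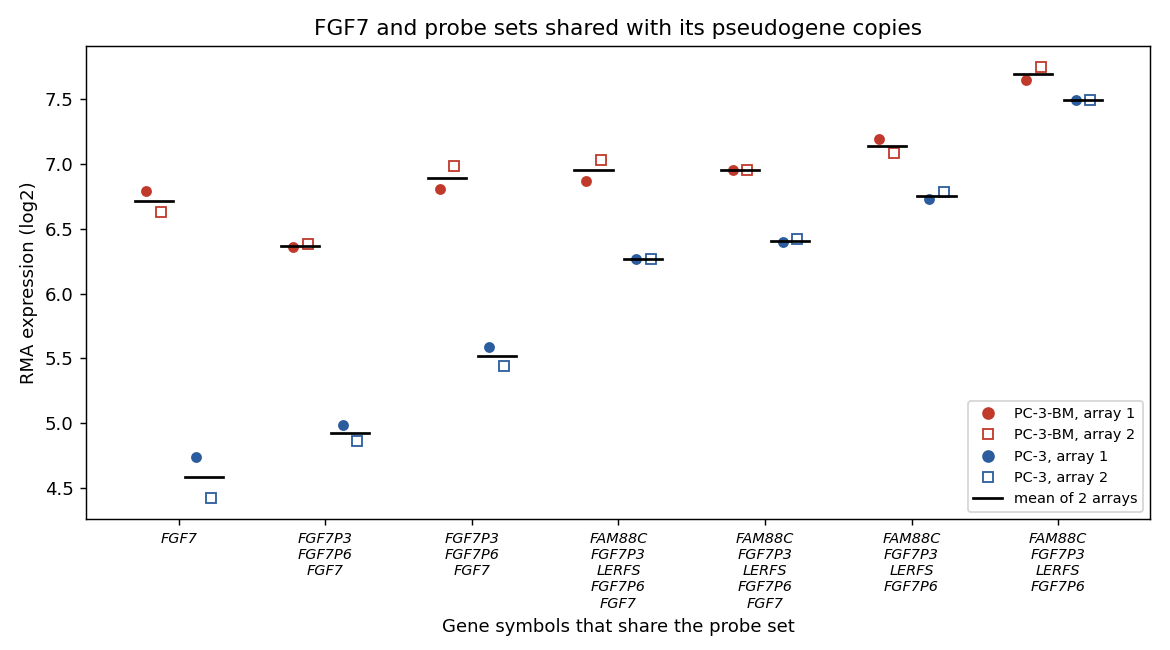
RMA expression (log2, vertical axis) on each array of the 7 different sets of values annotated to FGF7 or its pseudogenes, PC-3-BM in red left of PC-3 in blue, with bars for the mean of 2 arrays and the symbols that share each probe set on the horizontal axis. The difference is 2.13 on the FGF7 probe set at the left and 0.20 on the last pseudogene set at the right.

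Because stromal cells are a known source of FGF7, markers of fibroblasts and bone marrow stroma were read beside it. Of the 9 measured of 10 listed, COL1A1, a fibrillar collagen chain, rose by 0.68 and LUM, the matrix proteoglycan lumican, rose by 0.53, while PDGFRA fell by 0.33 and 6 did not pass. Their summed linear signal was 1183 and 1228 in PC-3-BM and 1143 and 1128 in PC-3. LUM was dim in both lines, at a mean of 4.10 in PC-3-BM and 3.56 in PC-3. So was DCN, decorin, at a mean of 3.75 in PC-3-BM and 3.68 in PC-3. Of the blood cell markers, CD68, a lysosomal protein of macrophages and many tumour cells, rose by 0.72, the other 7 of 8 did not pass, and PTPRC was dim at 3.99 in PC-3-BM and 3.75 in PC-3. The summed linear signal of the 8 blood markers, 3085 and 2887 in PC-3-BM and 1975 and 1958 in PC-3, was mostly CD68. Without CD68 the other 7 summed to 321 and 324 in PC-3-BM and 360 and 343 in PC-3, so the higher total rested on that gene. Of the 6 endothelial markers, PECAM1 rose by 0.45 and the other 5 did not pass. The summed linear signal of the 6 was 2018 and 1887 in PC-3-BM and 2218 and 2028 in PC-3. It was mostly KDR, which had RMA values of 10.76 and 10.65 in PC-3-BM and 10.94 and 10.80 in PC-3. None of the 5 measured osteoblast markers of 6 listed passed, with 1 at an unadjusted limma p below 0.05. Over all genes 29.6% passed. Per the methods, the cells flushed from bone were selected with geneticin and sorted by green fluorescence. The host was a mouse and the array was designed for human transcripts. How many host cells remained, and how far mouse RNA binds these probes, was not measured. The part of other cell types in the FGF7 difference was not tested, and in these bulk samples fewer cells of a type and less RNA per cell cannot be told apart.

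FGF2, basic FGF, which binds several receptors and lacks a classical secretion signal, had 8.39 and 8.42 in PC-3-BM, against 8.80 and 8.82 in PC-3. The arrays of a line lay within 0.03 of each other and the lines did not overlap. FGF2 averaged 8.40 ± 0.02 in PC-3-BM and 8.81 ± 0.01 in PC-3 (SD, n = 2 each), a difference of -0.40 (SE 0.07, 95% interval -0.58 to -0.23, limma adjusted p = 0.0165), with PC-3-BM at 0.757 of the PC-3 level. The call was lost when any single array of either line was left out (adjusted p 0.0656 to 0.0931) and without the shared variance (0.0677).

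The remaining FGF genes did not pass the test. FGF5, a ligand known as a brake on hair growth, had 9.05 and 9.19 in PC-3-BM, against 8.80 and 8.96 in PC-3, without overlap, and a difference of 0.24 (SE 0.10, 95% interval -0.01 to 0.49, limma adjusted p = 0.146). FGF1, acidic FGF, which can bind all the FGFRs, had 6.02 and 6.46 in PC-3-BM, against 6.43 and 6.39 in PC-3. The PC-3-BM arrays were 0.44 apart and enclosed both PC-3 arrays, and the difference was -0.17 (SE 0.16, 95% interval -0.58 to 0.23, limma adjusted p = 0.484). FGF9, a ligand known from male gonad development, was dim in both lines, with 3.79 and 3.87 in PC-3-BM and 3.95 and 3.84 in PC-3 (difference -0.07, 95% interval -0.27 to 0.14, adjusted p = 0.596). FGF13 had 7.11 and 7.05 in PC-3-BM and 7.02 and 7.09 in PC-3 (difference 0.03, 95% interval -0.16 to 0.22, adjusted p = 0.834). All 4 intervals contain 0, and those of FGF5, FGF1 and FGF13 end short of a doubling of signal in either direction. For FGF9, which was dim in both lines, the interval describes the probe set signal and sets no limit on a change in transcript.

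**Figure D3:**
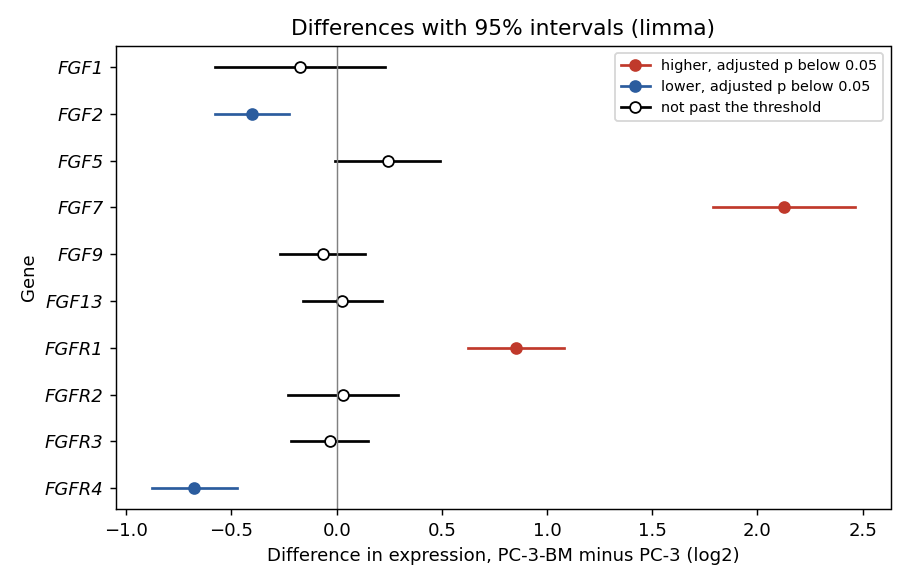
Difference in RMA expression, PC-3-BM minus PC-3 (log2, horizontal axis), with its 95% interval from limma for each of the 10 genes (vertical axis). FGF7 at 2.13 and FGFR1 at 0.85 lie right of 0, FGF2 at -0.40 and FGFR4 at -0.68 lie left of it, and the intervals of the other 6 genes contain 0.

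Among the receptors, one rose, one fell and 2 did not pass. FGFR1 had 9.18 and 9.05 in PC-3-BM, against 8.20 and 8.33 in PC-3. The lines did not overlap, and the gap between them was wider than that between the 2 arrays of either line. FGFR1 averaged 9.12 ± 0.09 in PC-3-BM and 8.26 ± 0.09 in PC-3 (SD, n = 2 each), a difference of 0.85 (SE 0.09, 95% interval 0.62 to 1.08, limma adjusted p = 0.00518) or 1.81-fold, the 1030th of 18417 genes by size. Without 1 array at a time the difference was 0.79 to 0.92 and passed each time (adjusted p 0.0271 to 0.0451), and without the shared variance the adjusted p was 0.0959.

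FGFR4, a receptor known for its part with klotho beta in the response of liver to FGF19, had 6.85 and 6.72 in PC-3-BM, against 7.48 and 7.45 in PC-3. FGFR4 averaged 6.78 ± 0.09 in PC-3-BM and 7.46 ± 0.02 in PC-3 (SD, n = 2 each), a difference of -0.68 (SE 0.08, 95% interval -0.88 to -0.48, limma adjusted p = 0.00656), so PC-3-BM lay at 0.625 of the PC-3 level. The call was lost without PC-3 array 1 (adjusted p = 0.0539), without PC-3 array 2 (0.0526) and without the shared variance (0.0900). Most epithelial markers also fell. Of 8, 6 fell and none rose, where 29.6% of all genes passed in either direction. The largest differences were -2.03 for KRT8, a keratin of simple epithelia, and -1.30 for EPCAM, an epithelial adhesion molecule. KRT7, KRT18, KRT19 and CLDN7 fell by 0.63, 0.40, 0.33 and 0.31, and DSP and CDH1, E-cadherin, did not pass. The summed linear signal of the 8 was 5091 and 5013 in PC-3-BM and 8095 and 7701 in PC-3. CDH1 was dim in both lines at 5.02. Of 3 measured luminal prostate markers of 8 listed, HOXB13 fell by 0.91, to a mean of 9.44 in PC-3-BM against 10.4 in PC-3, while KLK2 and KLK3 did not pass. The part of the epithelial marker differences in the FGFR4 difference was not tested.

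FGFR2 and FGFR3 did not pass the test. FGFR2, whose epithelial form is the known receptor of FGF7, was dim in both lines, with 4.51 and 4.59 in PC-3-BM and 4.63 and 4.41 in PC-3. The arrays overlapped, with a difference of 0.03 (95% interval -0.23 to 0.29, limma adjusted p = 0.868), and the probe set does not separate splice forms. FGFR3, known for its role as a brake on bone growth, had 6.18 and 6.23 in PC-3-BM and 6.21 and 6.27 in PC-3, with a difference of -0.03 (95% interval -0.21 to 0.15, adjusted p = 0.785).

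The wider pathway was read from 7 lists chosen by role, of which 84 of 92 genes had a probe set of their own. Over these, 13 rose and 9 fell, 22 of 84 or 26.2%, against 29.6% of all genes read by a probe set of their own. Fewer of the 84 passed when any one array was left out, as was the case over all probe sets.

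Outside the 10 genes, FGF transcripts showed no call. None of the 13 other secreted ligands passed, with 3 at an unadjusted limma p below 0.05 and a median difference of -0.10. FGF4 had 7.27 and 7.41 in PC-3-BM and 7.39 and 7.49 in PC-3 (difference -0.10), and FGF22 had 7.03 and 7.08 in PC-3-BM and 7.11 and 7.10 in PC-3 (difference -0.05). When the model was fitted and p-values adjusted over probe sets with 1 symbol only, 2 of the 13 passed, both lower. None of the 3 other FGF homologous factors passed, with 1 at an unadjusted p below 0.05. FGF11 had 6.97 and 6.94 in PC-3-BM and 7.22 and 7.16 in PC-3 (difference -0.24, limma adjusted p = 0.0759). With 1-symbol sets only, 1 of the 3 passed. A minimum mean of 5 left 2 of these genes and one of 6 left 1, and 1 passed in each case. FGF12 differed by 0.04.

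Proteins that present or carry FGFs held the largest differences of the lists. FGFBP1, a secreted carrier that releases FGFs from the matrix, had 6.77 and 6.30 in PC-3-BM, against 8.39 and 8.47 in PC-3, a difference of -1.90 (SE 0.17, limma adjusted p = 0.00380). It was the 1 of 6 coreceptor, decoy and carrier genes to pass, and no other fell or rose. Of 11 measured heparan sulfate core proteins of 12 listed, 3 rose and 3 fell. GPC4, glypican 4, had 4.96 and 4.75 in PC-3-BM, against 7.77 and 7.60 in PC-3 (difference -2.83, SE 0.11, adjusted p = 0.001003), and was dim in PC-3-BM. GPC6, glypican 6, had 9.36 and 9.15 in PC-3-BM, against 7.41 and 7.56 in PC-3 (difference 1.77, SE 0.11, adjusted p = 0.00192). These 2 glypicans moved in opposite directions, each without overlap. SDC2, syndecan 2, rose by 0.87 and HSPG2, the basement membrane proteoglycan perlecan, fell by 0.80.

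Of 20 measured genes that build or edit heparan sulfate of 21 listed, 2 rose and 1 fell. SULF2, an extracellular enzyme that removes sulfate groups from the chains, had 7.09 and 7.08 in PC-3-BM, against 8.56 and 8.59 in PC-3 (difference -1.49, SE 0.07, limma adjusted p = 0.00132). GLCE, which converts glucuronic to iduronic acid, rose by 0.56 and EXTL2, a glycosyltransferase, rose by 0.49. Leaving out PC-3-BM array 1 or either PC-3 array left fewer of the 20 passing, as was the case over all probe sets. With 1-symbol sets only, 5 passed.

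Inside the cell, 4 of 14 measured adaptor and RAS-MAPK genes of 20 listed rose and 1 fell. SHC1, a receptor adaptor, had 10.54 and 10.55 in PC-3-BM, against a mean of 9.98 in PC-3 (difference 0.57, SE 0.07, limma adjusted p = 0.00700). GAB1, a docking protein, rose by 0.47. The RAS exchange factors went apart, SOS2 rising by 0.42 and SOS1 falling by 0.32. Fewer of the 14 passed when any one array was left out, as was the case over all probe sets. The median difference of the list was 0.08.

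Feedback inhibitors and transcriptional targets of FGF signalling changed in both directions, 4 of 17 higher and 3 lower. FLRT2, a transmembrane protein of a family that binds FGFRs, had 7.23 and 7.15 in PC-3-BM, against 5.91 and 5.84 in PC-3 (difference 1.31, SE 0.07, limma adjusted p = 0.00183). DUSP5, a nuclear ERK phosphatase, had 11.21 and 11.17 in PC-3-BM, against 10.16 and 10.14 in PC-3 (difference 1.04, SE 0.07, adjusted p = 0.00228). SPRY2, a Sprouty inhibitor, rose by 0.73, and ETV4, an ETS transcription factor induced by FGF, fell by 0.57. The related factor ETV1 rose by 0.41, and ETV5 differed by -0.04 without passing. The inhibitors thus did not move together: SPRY4 fell by 0.51 and SPRY1 by 0.35, and DUSP6, the cytoplasmic ERK phosphatase, had a difference of -0.25 (adjusted p = 0.0646). Fewer of the 17 passed when any one array was left out, as was the case over all probe sets.

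**Figure D4:**
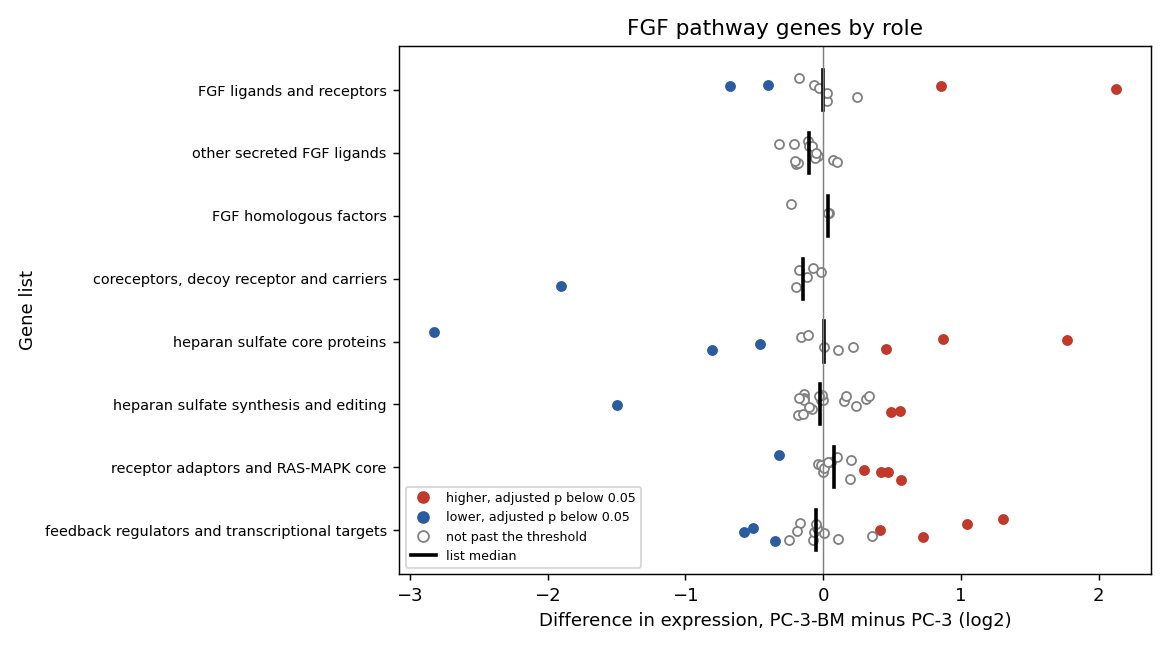
Difference in RMA expression, PC-3-BM minus PC-3 (log2, horizontal axis), of the 10 FGF and FGFR genes and of 7 lists by role (vertical axis); each point is a gene, red and blue points have an adjusted p below 0.05, and bars are list medians. The widest spread is among heparan sulfate core proteins, from GPC4 at -2.83 to GPC6 at 1.77, and the other secreted ligands hold no filled point.

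The 3 nearest measured genes on each side were read for the 4 genes that changed. The neighbours of FGF7 on chromosome 15 differed by -0.32 to 0.44, all less than FGF7 itself. Of these 6, 2 rose and 1 fell, where 29.6% of all genes passed. ATP8B4, a lipid-flippase gene, had 4.81 and 4.93 in PC-3-BM, against 4.40 and 4.46 in PC-3 (difference 0.44, limma adjusted p = 0.0191), and was dim in both lines. FAM227B, which shares 65534 bases with FGF7 in RefSeq, differed by 0.41 (limma adjusted p = 0.0412) and was dim in PC-3. COPS2, a signalosome subunit, differed by -0.32 (limma adjusted p = 0.0344). Around FGFR1 on chromosome 8, TACC1, a centrosomal protein gene, rose by 0.39 and the other 5 lay between -0.08 and 0.15 without passing.

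Around FGF2 on chromosome 4, 2 of the 6 nearest measured genes fell and 0 rose, where 29.6% of all genes passed. The 6 differences ran from -0.37 to 0.20. NUDT6, which overlaps FGF2 over 5660 bases on the opposite strand, was 1 of the 2. NUDT6 had 7.31 and 7.28 in PC-3-BM, against 7.70 and 7.63 in PC-3 (difference -0.37, limma adjusted p = 0.0229). SPRY1, which also lies near FGF2, is the Sprouty gene that fell by 0.35. Around FGFR4 on chromosome 5, 2 of the 6 nearest measured genes fell, 1 rose and the others did not pass. The zinc finger gene ZNF346 fell by 0.54 and NSD1, a histone methyltransferase gene, by 0.45, while RAB24, a small GTPase gene, rose by 0.56. Copy number was not measured here.

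**Figure D5:**
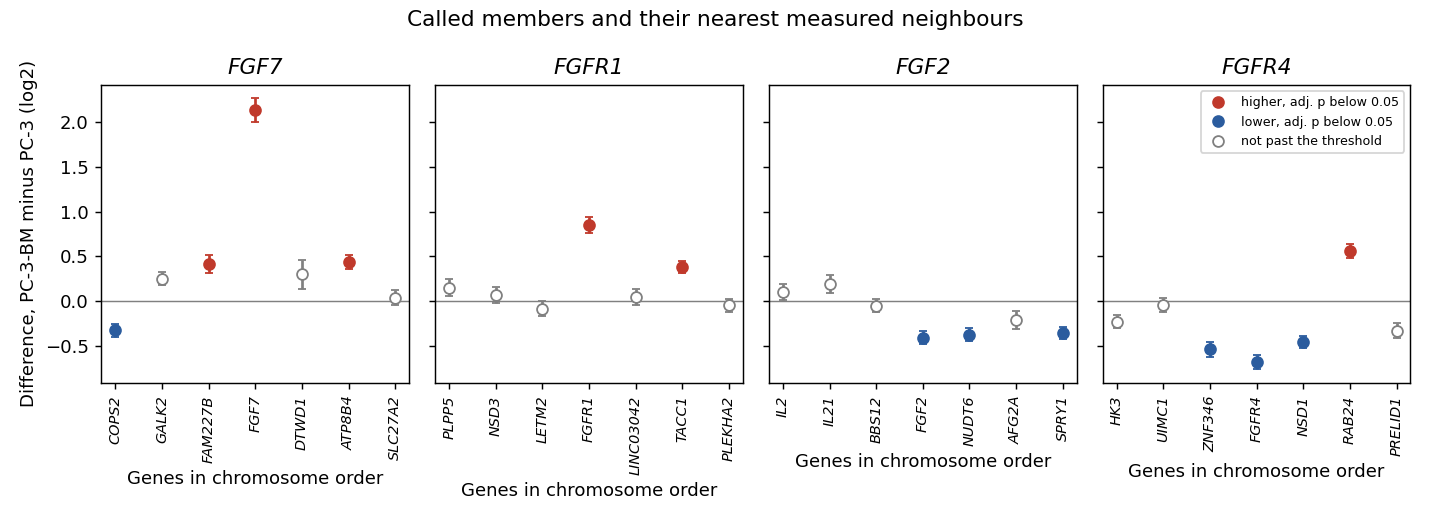
Difference in RMA expression, PC-3-BM minus PC-3 (log2, vertical axis, bars are 1 SE), of FGF7, FGFR1, FGF2 and FGFR4 and of the 3 nearest measured genes on each side, in chromosome order on the horizontal axis. FGF7 at 2.13 stands above its neighbours, whose highest is 0.44, and FGF2 at -0.40 lies beside NUDT6 at -0.37.

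The genes whose values over the 4 arrays, each centred on its mean, lay nearest to those of FGF7 among the 18417 genes were HGF, PDGFA and DIPK1A, at Euclidean distances of 0.0886, 0.125 and 0.181. HGF, hepatocyte growth factor, had 7.37 and 7.24 in PC-3-BM, against 5.32 and 4.92 in PC-3, a difference of 2.18. PDGFA, a platelet-derived growth factor chain, had 9.30 and 9.14 in PC-3-BM, against 7.09 and 6.85 in PC-3, a difference of 2.24. DIPK1A, a kinase-like protein gene, differed by 2.01. With 4 arrays in 2 lines, this likeness is mostly a like difference between the lines.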

How the data were processed

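Total RNA of both lines was converted to biotin-labelled cRNA and hybridised to single-colour arrays. The authors deposited log2 RMA values (background-corrected, quantile-normalized and summarised by probe set), with limma 3.24 and R 3.2 named in the submitters' processing notes. The deposited table of 33297 probe sets was used as it stood, with array medians of 6.66 to 6.72; the annotation gives 19460 probe sets 1 symbol, 1754 several and 12083 none. RefSeq (GRCh38.p14) matched 18389 of 18417 symbols and served for gene order and upstream sequence. PC-3-BM was compared with PC-3 with limma 3.58.1 under R 4.3.3 (group means, empirical Bayes, 2.88 prior and 2 residual degrees of freedom). The p-values were adjusted by Benjamini-Hochberg over the whole table. The code was run on independently drawn values with known differences, which checks the fit and not the calls made here. No filter was applied. RMA equalises the arrays, so a change common to all transcripts would be hidden, and the number of arrays limits the precision. The members and lists were chosen with earlier results of these data known. Named were all 10 members, some of the 3 neighbours read on each side, the 3 genes most like FGF7, and cell type markers. Per list, up to 4 called genes with the largest differences or else the 2 brightest were named. Other list genes (SPRY4, SPRY1, DUSP6, ETV1, ETV5), the neighbours named and the markers shown were picked after their values were seen. Alternatives were other scaling, brightness filters, other variance models, 1-symbol probe sets, a replicate block, the study's thresholds and leaving out each array.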

Additional observations from a re-analysis of the deposited data

How the results depend on the processing

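With variances not shared between probe sets, 13 probe sets, 0 of the 10 FGF and FGFR genes and 0 of the 84 pathway genes passed, although 9307, 4 and 31 had an unadjusted p below 0.05. By the study's thresholds 0 of the 10 passed. Leaving out 1 array left 2238 to 3854 probe sets, 2 to 3 of the 10 genes and 9 to 14 of the 84, in fits where the lone array of a line is assumed to vary like the other line. Deviations of same-numbered arrays correlated at -0.02, so the numbers were not taken as pairs; with the replicate number as a block, 6473 probe sets, 4 of the 10 and 20 of the 84 passed. Among the 10, signs turned only in genes that did not pass: with arrays centred on their medians FGFR3 had a difference of 0.0021, and with 1 array left out FGF1 ranged from -0.39 to 0.046, FGF13 from -0.0095 to 0.063 and FGFR2 from -0.085 to 0.14. A minimum mean of 5 left out FGF9 and FGFR2, and one of 6 left out FGF7 too. The dim signal of FGF7 in PC-3 and of FGF9 and FGFR2 in both lines limits what could be seen there.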

Other observations

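Genes beside the FGF and FGFR genes that did not pass the test also differed between the lines, where 29.6% of all genes passed the test. Around FGFR2 on chromosome 10, 4 of the 6 nearest measured genes rose and 1 fell; WDR11, a gene for a trafficking protein, had 9.11 and 8.99 in PC-3-BM, against 8.32 and 8.33 in PC-3 (difference 0.73, limma adjusted p = 0.00554), and TACC2, a centrosomal protein gene, differed by 0.74 (adjusted p = 0.00558). Around FGF9 on chromosome 13, 4 of 6 rose; MIPEP, a mitochondrial peptidase gene, had 7.71 and 7.84 in PC-3-BM, against 6.87 and 7.04 in PC-3 (difference 0.82, adjusted p = 0.00708), and TNFRSF19 differed by 0.73 (adjusted p = 0.00475). Around FGF1 on chromosome 5, 2 of 6 rose and 1 fell; NR3C1, the glucocorticoid receptor gene, rose by 0.72 and SPRY4 fell by 0.51. Around FGF5 on chromosome 4, 1 of 6 rose and 1 fell; BMP3, a bone morphogenetic protein gene, rose by 0.78 and PRDM8 fell by 0.54. Around FGFR3 on chromosome 4 and FGF13 on the X chromosome, 1 of 6 rose and 1 fell in each. The genes named here were picked after their values were seen.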
